A study of Mus musculus with 42 samples.

Results

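The contractile gene set of smooth muscle and myofibroblasts comprised 10 genes, Acta2, Actg2, Myh11, Des, Tagln, Cnn1, Mylk, Lmod1, Synm and Smtn, taken by name out of 17645 genes that had a row in any of the 4 tables on Gli1-tdTomato+ colon cells. Each of the 10 genes had a row in all 4 tables. The tables covered 12 of the 42 libraries of the series, 2 for each genotype and colon segment. Control mice were Gli1-CreERT2;Rosa26-tdTomato (GWTT). GS4T mice were Gli1-CreERT2;Smad4 fl/fl;Rosa26-tdTomato and lost Smad4, the co-Smad shared by BMP and TGF-β signaling. GA3T mice were Gli1-CreERT2;Alk3 fl/fl;Rosa26-tdTomato and lost Alk3 (Bmpr1a), a type I BMP receptor. All mice, controls included, carried the tamoxifen-dependent Cre in the Gli1 locus, received 100 µl of 20 mg/ml tamoxifen a day for 5 days and were analyzed on day 30, at 2 to 4 months of age and of both sexes. The tdTomato+ cells were sorted after collagenase digestion, and the label marks cells that had expressed Gli1 when tamoxifen was given. The profiles describe a sorted mixture and not muscle as such. They also held reads of epithelial, immune and endothelial marker genes. The labels did not state whether a library came from 1 mouse or several, so the p-values below measure the spread between these libraries.

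Smooth muscle cells shorten when calcium-activated myosin light chain kinase (Mylk) phosphorylates smooth muscle myosin, whose heavy chain is Myh11, so that it pulls on filaments of the smooth muscle actins Acta2 and Actg2. Calponin (Cnn1), transgelin (Tagln) and smoothelin (Smtn) bind the actin filaments, leiomodin 1 (Lmod1) nucleates them, and desmin (Des) and synemin (Synm) form the intermediate filaments that tie the apparatus together. Myofibroblasts under the colonic epithelium carry part of this program, Acta2 foremost, and fibroblasts switch it on when TGF-β activates them. Serum response factor, bound to CArG boxes, with its myocardin-family partners, is the best known driver of these genes.

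The libraries held 14222902 to 23686940 reads assigned to genes. Smad4 was at 94.9 to 109 CPM (reads per 1000000 reads assigned to genes) in the 4 GWTT libraries and at 41.5 to 70.1 CPM in the 4 GS4T libraries, so part of the Smad4 signal remained. Bmpr1a was at 166 to 189 CPM in GWTT and at 105 to 125 CPM in GA3T. The counts covered whole genes, not the floxed exons alone. Gli1 itself, the gene that drives the Cre, was at 1.40 CPM in proximal GS4T library 2 and at 1.98 CPM in proximal GA3T library 2, against 38.0 to 99.6 CPM in the other 10 libraries. By the female-specific Xist transcript, 1 library each of proximal GWTT, proximal GA3T and distal GA3T came from male mice and the other 9 from female mice. The labels name the tissue as epithelium, but the fibroblast genes Col1a1 (6139 to 14320 CPM) and Pdgfra (925 to 2155 CPM) stood far above the epithelial Epcam (3.12 to 229 CPM) in every library.

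RefSeq (GRCm38.p6) held a 300-base promoter, from 250 bases before to 50 bases after a transcription start, for 7 of the 10 genes. The promoters of Acta2, Mylk, Lmod1 and Synm are shown as examples of genes that passed the test of GS4T against GWTT. Acta2 and Mylk passed in the proximal colon only, and Lmod1 and Synm in the distal colon only. Capitals mark GGAATG on either strand (the MCAT element, read by TEAD factors) and a CArG box with 1 C or G in its A/T core.
Acta2, chr19:34255324-34255623, minus strand: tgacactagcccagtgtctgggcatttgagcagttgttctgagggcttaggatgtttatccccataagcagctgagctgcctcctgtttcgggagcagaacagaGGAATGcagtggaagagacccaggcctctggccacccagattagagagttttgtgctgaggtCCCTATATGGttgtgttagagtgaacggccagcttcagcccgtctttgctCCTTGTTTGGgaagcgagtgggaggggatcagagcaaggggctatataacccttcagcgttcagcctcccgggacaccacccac
Mylk, chr16:34784700-34784999, plus strand: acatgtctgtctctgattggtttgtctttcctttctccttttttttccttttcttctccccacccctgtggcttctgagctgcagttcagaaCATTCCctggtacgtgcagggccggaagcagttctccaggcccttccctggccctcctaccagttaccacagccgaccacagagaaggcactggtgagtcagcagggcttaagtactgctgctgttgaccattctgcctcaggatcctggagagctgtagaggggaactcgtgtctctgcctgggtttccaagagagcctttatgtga
Lmod1, chr1:135324563-135324862, plus strand: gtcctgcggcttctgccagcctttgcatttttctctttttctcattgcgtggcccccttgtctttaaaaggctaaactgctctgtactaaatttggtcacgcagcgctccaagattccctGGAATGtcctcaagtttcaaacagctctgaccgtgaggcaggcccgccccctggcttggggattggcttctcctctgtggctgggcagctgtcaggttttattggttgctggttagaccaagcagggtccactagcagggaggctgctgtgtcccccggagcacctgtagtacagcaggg
Synm, chr7:67759693-67759992, minus strand: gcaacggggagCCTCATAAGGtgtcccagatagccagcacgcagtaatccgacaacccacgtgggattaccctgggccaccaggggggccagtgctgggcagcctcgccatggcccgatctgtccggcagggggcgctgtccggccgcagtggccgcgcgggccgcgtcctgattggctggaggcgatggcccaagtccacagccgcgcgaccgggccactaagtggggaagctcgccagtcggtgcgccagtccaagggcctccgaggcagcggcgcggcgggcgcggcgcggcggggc
None of the 7 promoters held a perfect CArG box, which 1.63% of all 32851 RefSeq promoters held. The version with 1 C or G in the core, searched after the perfect box was not found, occurred in 8.50% of all promoters. It was found in Acta2 at positions -84 and -34 from the start site, and in Synm at position -239. GGAATG was present in Acta2, Mylk, Lmod1 and Smtn, against 14.7% of all promoters. The GC-rich Smad element GGCGCC was in Des and Smtn, against 11.9% of all promoters. The short Smad element GTCTG was in Acta2, Cnn1, Des, Mylk and Smtn, against 49.6% of all promoters. Both strands were searched, and a match is a description of the letters only. The Mylk entry lies inside the annotated gene (chr16:34745210-35002420), at the start of a shorter transcript. The Smtn entry starts 1320 bases and the Acta2 entry 217 bases inside the annotated gene.

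The smooth muscle actin Acta2 was the most abundant of the 10 transcripts in all 6 groups once CPM was divided by exon length. In GWTT it reached 87.2 and 73.8 CPM per kb in the proximal and 193 and 185 CPM per kb in the distal colon. That level exceeded 97.0% (proximal) and 98.8% (distal) of 15217 genes. In the proximal GWTT libraries, Myh11, Smtn, Synm, Actg2, Mylk and Des followed at mean levels of 20.1, 16.2, 14.6, 11.6, 9.43 and 8.17 CPM per kb, and each of them overlapped the next in this order. Cnn1 (4.93 CPM per kb) and Lmod1 (2.31 CPM per kb) stood below them and overlapped each other. In the distal GWTT libraries the order was clearer. Myh11 came second at 63.4 CPM per kb, above Actg2 (28.5) and Smtn (25.8), which overlapped, and then Mylk (17.7), Synm (13.0), Cnn1 (10.9), Lmod1 (7.69) and Des (6.30 CPM per kb), each apart from the next. In both groups of GS4T and in proximal GA3T, Actg2 took second place, with 77.7 CPM per kb in proximal GS4T, 34.3 in proximal GA3T and 113 in distal GS4T. In proximal GA3T this place was not separate from Smtn (32.5 CPM per kb).

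Tagln, usually among the most abundant smooth muscle transcripts, was the lowest of the 10 in every group, at 0.43 CPM per kb in proximal and 0.36 CPM per kb in distal GWTT, above 10.7% and 9.27% of genes. Its CPM ranged from 0.44 to 2.10 over the 12 libraries, while that of Acta2 ranged from 162 to 1025. In the annotation of the build used, 67.9% of the exon bases of Tagln (chr9:45929619-45936058, minus strand) overlap genes on the opposite strand, 62.4% the antisense RNA Gm48529 and 5.43% the protease gene Pcsk7. Gm48529 had 0.74 to 2.68 CPM and Pcsk7 34.7 to 54.8 CPM. Neither the strand setting nor the counting program was stated in the sources used here, so the Tagln values are uncertain. Of the other genes, Smtn shared 16.3% of its exon bases with opposite-strand genes, Mylk 6.85%, Synm 6.43% and Des 5.86%, and the remaining 5 shared none. Acta2 and Actg2 belong to the near-identical actin family, and only uniquely mapped reads were kept, so reads common to several actins are missing from both.

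**Figure D1:**
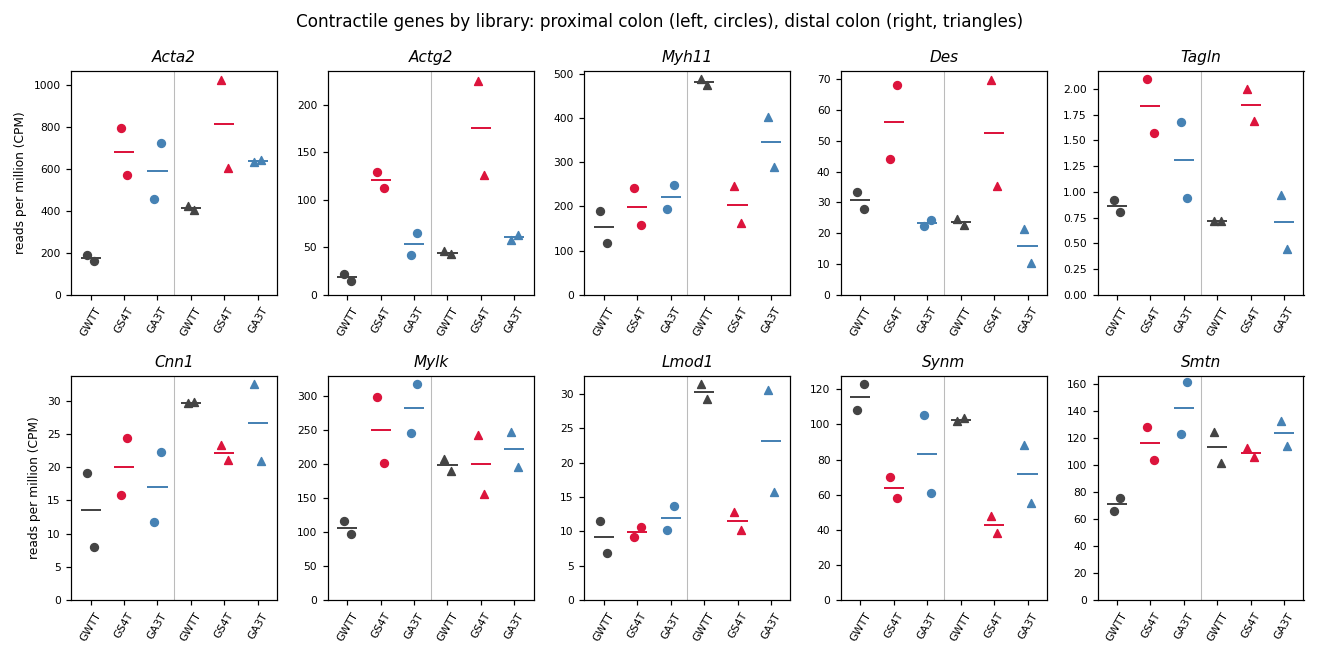
Normalized level (CPM) of the 10 contractile genes in the 12 libraries, 1 panel a gene, with the proximal colon at the left (circles), the distal colon at the right (triangles) and a bar at the mean of the 2 libraries of each group. Acta2 and Actg2 in GS4T lie above GWTT in both segments, whereas Myh11, Lmod1 and Synm in distal GS4T lie below distal GWTT.

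In the proximal colon, loss of Smad4 went with more of both smooth muscle actins and of myosin light chain kinase. Acta2, Actg2 and Mylk rose and none of the 10 genes fell past the threshold (limma on log2 normalized counts, Benjamini-Hochberg adjusted p under 0.05 over all genes and a log2 fold change of at least 1 in size). These 3 of 10 stood against 9.61% of 15319 genes called in either direction, 5.25% higher and 4.36% lower. Actg2, the enteric actin, had 372 and 236 normalized counts in the GWTT libraries and 2103 and 1929 in the GS4T libraries. Its mean rose 6.63-fold (log2 fold change 2.76 ± 0.23 SE, limma adjusted p = 0.0063), which ranked 525 of 15319 genes by increase. Acta2 had 3237 and 2687 normalized counts in GWTT and 12952 and 9738 in GS4T, a 3.83-fold rise (log2 fold change 1.93 ± 0.18, limma adjusted p = 0.0072). Mylk had 1957 and 1605 normalized counts in GWTT and 4860 and 3447 in GS4T, a rise of 1.21 ± 0.20 on the log2 scale (limma adjusted p = 0.022). For these 3 genes every GS4T library was above every GWTT library.

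The other 7 genes did not pass in the proximal GS4T colon, although 4 of them separated the groups. The actin-binding Smtn had 1110 and 1259 normalized counts in GWTT and 2092 and 1776 in GS4T, a log2 fold change of 0.70 ± 0.13 that was under the fold threshold (limma adjusted p = 0.028). The intermediate filament gene Synm lay the other way, with 1832 and 2045 normalized counts in GWTT and 1138 and 993 in GS4T (log2 fold change -0.86 ± 0.12, limma adjusted p = 0.015), also under the fold threshold. Its partner Des had 564 and 464 normalized counts in GWTT and 716 and 1163 in GS4T (limma adjusted p = 0.090). Tagln, with 15.5 and 13.3 normalized counts in GWTT and 34.1 and 26.9 in GS4T, was also separate (limma adjusted p = 0.21). The myosin gene Myh11 (3198 and 1926 against 3940 and 2690 normalized counts), Cnn1 (323 and 131 against 256 and 417) and Lmod1 (193 and 113 against 149 and 181) overlapped between the groups. In total 7 of 10 genes had non-overlapping groups, 6 of them higher in GS4T, where 65.4% of all genes tested did not overlap.

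The proximal calls rested on the GS4T libraries. With either of these left out, fewer of the 10 genes and far fewer of all genes were called. The lost calls were therefore not particular to these genes. Without GS4T library 1, which leaves the library with almost no Gli1 reads, the log2 fold changes of Acta2, Actg2 and Mylk were 1.72, 2.70 and 0.96. With each library left out in turn they ranged from 1.72 to 2.13, from 2.43 to 3.09 and from 0.96 to 1.45. An exact permutation test of 2 libraries against 2 could not go below p = 0.333 for any gene.

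In the distal colon the set split in GS4T. Actg2 rose, while Myh11, Lmod1 and Synm fell, so that 4 of 10 genes were called, against 14% of 15262 genes in either direction, 7.88% higher and 6.08% lower. Actg2 had 749 and 699 normalized counts in GWTT and 3697 and 2105 in GS4T, a 4.01-fold rise (log2 fold change 1.95 ± 0.26, limma adjusted p = 0.0063). The rise of Actg2 held with each of the 4 libraries left out in turn. Myh11, the myosin motor, had 8018 and 7718 normalized counts in GWTT and 4041 and 2705 in GS4T, and fell by 1.25 ± 0.20 on the log2 scale (limma adjusted p = 0.010). Lmod1, which starts new actin filaments, had 515 and 476 normalized counts in GWTT and 209 and 169 in GS4T, a log2 fold change of -1.39 ± 0.18 (limma adjusted p = 0.0062). Synm had 1671 and 1684 normalized counts in GWTT and 779 and 633 in GS4T, a log2 fold change of -1.26 ± 0.14 (limma adjusted p = 0.0038). The fall of Synm also held with each library left out, whereas that of Lmod1 was lost without GWTT library 1 and that of Myh11 was kept only without GS4T library 1.

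Acta2 in the distal colon had 6964 and 6588 normalized counts in GWTT and 16796 and 10090 in GS4T, so both GS4T libraries were higher, but its log2 fold change of 0.94 ± 0.24 was just under the fold threshold (limma adjusted p = 0.042). Des, with 402 and 370 against 1144 and 592 normalized counts, had a log2 fold change of 1.09 ± 0.31 and missed the p threshold (limma adjusted p = 0.052). DESeq2 on the recovered reads, which called 15.8% of all genes, called it. Without GS4T library 2 both genes passed by limma, with log2 fold changes of 1.31 for Acta2 and 1.57 for Des. Cnn1 had 487 and 484 normalized counts in GWTT and 383 and 351 in GS4T (log2 fold change -0.40 ± 0.14, limma adjusted p = 0.094), so the groups did not overlap. Tagln had 11.7 and 11.6 normalized counts in GWTT and 32.8 and 28.2 in GS4T (limma adjusted p = 0.12). Mylk (3406 and 3090 against 3987 and 2612) and Smtn (2039 and 1654 against 1848 and 1768) overlapped, with log2 fold changes of -0.01 ± 0.21 and -0.02 ± 0.13. In all, 4 genes were higher and 4 were lower in both GS4T libraries, where 67.5% of all genes did not overlap. The median log2 fold change of the 10 genes was 0.77 in the proximal and -0.02 in the distal GS4T colon, beside 0.02 and 0.01 over all genes tested.

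**Figure D2:**
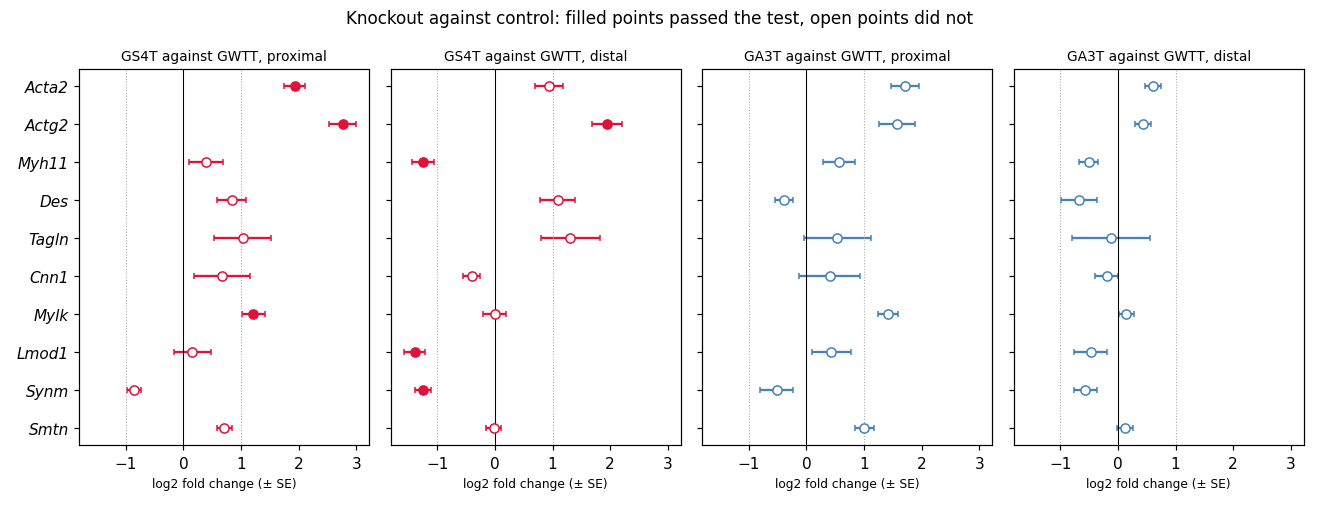
Log2 fold change of each contractile gene (knockout minus GWTT, ± SE, limma on log2(normalized count + 1), 2 libraries a group) in the 4 comparisons, with filled points for genes that passed adjusted p under 0.05 and a log2 fold change of at least 1 in size, and dotted lines at that size. In GS4T, 3 genes passed in the proximal colon and 4 in the distal colon, whereas no gene passed in GA3T.

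Loss of Alk3 gave no call among the 10 genes in either segment with limma, where 0.358% of 15346 proximal and 0% of 15414 distal genes were called. In the proximal colon 4 of the 10 genes, Acta2, Actg2, Mylk and Smtn, had an unadjusted p under 0.05 and a log2 fold change of at least 1, against 9.46% of all genes. DESeq2 called the same 4 genes (6.31% of all genes), edgeR none (0%), and the limma fit over all 12 libraries called Acta2, Actg2 and Mylk (4.64% of all genes). Acta2 had 3406 and 2825 normalized counts in GWTT and 8122 and 12722 in GA3T (log2 fold change 1.71 ± 0.25, limma adjusted p = 0.073). Actg2 had 392 and 248 normalized counts in GWTT and 745 and 1145 in GA3T (log2 fold change 1.57 ± 0.31, limma adjusted p = 0.10). Mylk had 2059 and 1687 normalized counts in GWTT and 4404 and 5596 in GA3T (log2 fold change 1.41 ± 0.17, limma adjusted p = 0.066). Smtn had 1168 and 1324 normalized counts in GWTT and 2207 and 2829 in GA3T (log2 fold change 1.01 ± 0.16, limma adjusted p = 0.077). For these 4 genes both GA3T libraries lay above both GWTT libraries. Without GA3T library 1, which leaves the library with almost no Gli1 reads, the log2 fold change of Acta2 was 2.04. With each library left out in turn it ranged from 1.39 to 2.04.

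The remaining genes of the proximal GA3T colon were closer to GWTT. Des had 593 and 488 normalized counts in GWTT and 398 and 426 in GA3T, lower in both libraries (log2 fold change -0.39 ± 0.16, limma adjusted p = 0.25). Synm, with 1928 and 2150 against 1889 and 1069 normalized counts, was also lower in both (limma adjusted p = 0.36). Myh11 (3365 and 2025 against 3455 and 4355) and Tagln (16.3 and 14.0 against 30.1 and 16.5) were higher in both, and Cnn1 and Lmod1 overlapped. Thus 8 of 10 genes had groups that did not overlap, where 56.4% of all genes did not overlap.

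In the distal GA3T colon no gene of the set reached a log2 fold change of 1 in size, and neither edgeR (0% of all genes), DESeq2 (5.03%) nor the unadjusted p with the fold (7.77%) called any. Acta2 had 7945 and 7497 normalized counts in GWTT and 11279 and 12421 in GA3T (log2 fold change 0.62 ± 0.14, limma adjusted p = 0.14). Actg2 had 855 and 795 normalized counts in GWTT and 1019 and 1223 in GA3T (0.44 ± 0.14, limma adjusted p = 0.21). Myh11 lay lower, with 9147 and 8784 against 7169 and 5570 normalized counts (log2 fold change -0.50 ± 0.17, limma adjusted p = 0.22). Des (458 and 421 against 377 and 200) and Synm (1907 and 1917 against 1575 and 1061) were lower in both GA3T libraries, with adjusted p of 0.33 and 0.24 by limma. Without GA3T library 1, the log2 fold change of Des was -1.13. With each library left out in turn it ranged from -1.13 to -0.22. The other 5 genes overlapped, so that 5 of 10 were separate, where 54.3% of all genes were. GS4T and GA3T were each set against the same GWTT libraries, so their values are not independent.

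A direct comparison of the knockouts, which leaves the shared controls out of the difference, separated Actg2 and Des. It was fitted to log2(CPM + 0.1) over all 12 libraries with limma. In the distal colon, 2 of 10 genes were higher in GS4T than in GA3T and none was lower, against 2.12% of 15353 genes called. Actg2 was at 226 and 126 CPM in distal GS4T and at 57.2 and 63.4 CPM in distal GA3T, a log2 difference of 1.48 ± 0.30 (limma adjusted p = 0.040). Des was at 69.8 and 35.4 CPM in distal GS4T and at 21.2 and 10.4 CPM in distal GA3T, a log2 difference of 1.74 ± 0.38 (limma adjusted p = 0.047). Both differences were lost when any distal library of either knockout except GS4T library 2 was left out, and also with the sex of the mouse as a term. Acta2 was at 1025 and 604 CPM in distal GS4T and at 634 and 644 CPM in distal GA3T, which overlapped.

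In the proximal colon no gene of the set passed between the knockouts by limma (0.0782% of all genes) or edgeR (0.0847%). Actg2 (129 and 113 CPM in GS4T, 41.7 and 65.3 CPM in GA3T) and Des (44.0 and 68.0 CPM in GS4T, 22.2 and 24.3 CPM in GA3T) did so at an unadjusted p under 0.05 with the fold, as did 3.09% of all genes. Their log2 differences were 1.21 ± 0.30 and 1.23 ± 0.38 (limma adjusted p = 0.24 and 0.33). Mylk was at 298 and 202 CPM in GS4T and at 246 and 319 CPM in GA3T, a log2 difference of -0.19 ± 0.25.

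Between the segments of GWTT, 2 of the 10 genes were called. Myh11 and Lmod1 were lower in proximal than distal libraries, where 1.32% of 15353 genes were called (limma on log2(CPM + 0.1), 12 libraries). Myh11 was at 189 and 116 CPM in proximal and at 489 and 475 CPM in distal GWTT, a log2 difference of -1.70 ± 0.31 (limma adjusted p = 0.030). Lmod1 was at 11.4 and 6.80 CPM in proximal and at 31.4 and 29.3 CPM in distal GWTT, a log2 difference of -1.77 ± 0.34 (limma adjusted p = 0.038). Acta2 (191 and 162 against 425 and 406 CPM), Actg2 (22.0 and 14.2 against 45.7 and 43.0 CPM), Mylk (116 and 96.7 against 208 and 190 CPM), Cnn1 (19.1 and 7.91 against 29.7 and 29.8 CPM) and Smtn (65.7 and 75.9 against 124 and 102 CPM) were also lower in both proximal libraries. They had log2 differences from -1.32 to -0.67 and limma adjusted p from 0.068 to 0.20. At an unadjusted p with the fold 5 of the 10 passed (6.4% of all genes), and 4 in a fit of the GWTT libraries alone (2.19%). The intermediate filament genes lay the other way, with Des at 33.3 and 28.0 CPM in proximal and 24.5 and 22.8 CPM in distal GWTT, and Synm at 108 and 123 against 102 and 104 CPM. Their log2 differences were 0.37 ± 0.38 and 0.17 ± 0.28. With Tagln, 3 genes were higher and 7 lower in both proximal libraries, so that the segments were separate for 10 of 10 genes, where 48.2% of all genes were. The median log2 difference of the 10 genes was -1.07, beside -0.02 over all genes. With any 1 of the 4 GWTT libraries left out, neither Myh11 nor Lmod1 passed, although the log2 differences stayed between -2.05 and -1.35 for Myh11 and between -2.14 and -1.40 for Lmod1.

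In the knockouts none of the 10 genes passed between the segments by limma, where 0.0782% of all genes were called in GS4T and 0.0912% in GA3T. None passed by edgeR (0.0651% and 0.0912% of all genes) or at an unadjusted p with the fold (2.83% and 1.54%). Myh11 was at 242 and 157 CPM in proximal and at 246 and 162 CPM in distal GS4T, a log2 difference of -0.03 ± 0.31. Lmod1 was at 9.17 and 10.6 CPM in proximal and at 12.8 and 10.1 CPM in distal GS4T, a log2 difference of -0.20 ± 0.34. In GA3T, Myh11 was at 193 and 248 CPM in proximal and at 403 and 289 CPM in distal libraries (-0.64 ± 0.31), and Lmod1 at 10.3 and 13.7 against 30.6 and 15.7 CPM (-0.88 ± 0.34). The Myh11 level of the 2 distal GWTT libraries was above that of the other 10 libraries, and both the distal fall in GS4T and the segment difference in GWTT rest on it.

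Whether the knockout effect itself differed between segments was tested with the interaction term of the same fit, and none of the 10 genes passed for either knockout by limma or edgeR (each 0.0326% of all genes for GS4T and 0.0261% for GA3T). At an unadjusted p under 0.05 with a difference of at least 1, 4 genes did for GS4T (Acta2, Myh11, Mylk and Lmod1), as did 5.04% of all genes, and 4 for GA3T (Acta2, Actg2, Myh11 and Mylk), as did 3.37%. For GS4T the effect in the proximal colon minus that in the distal colon was 1.67 ± 0.43 on the log2 scale for Myh11 (limma adjusted p = 0.22), 1.57 ± 0.48 for Lmod1 (0.33), 1.24 ± 0.35 for Mylk (0.28) and 1.01 ± 0.40 for Acta2 (0.49). For GA3T it was 1.25 ± 0.35 for Mylk (limma adjusted p = 0.50), 1.11 ± 0.43 for Actg2 (0.67), 1.08 ± 0.40 for Acta2 (0.65) and 1.06 ± 0.43 for Myh11 (0.68).

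**Figure D3:**
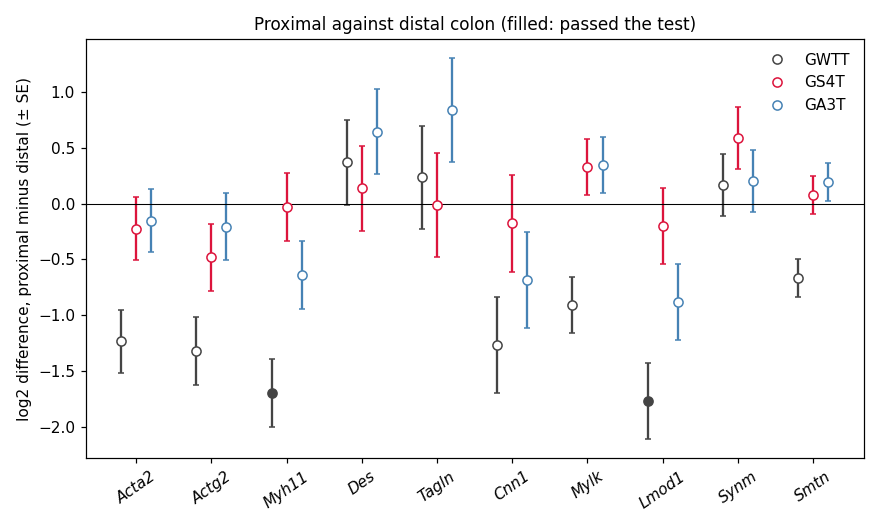
Log2 difference between the proximal and the distal colon (proximal minus distal, ± SE, limma on log2(CPM + 0.1) over 12 libraries) for each contractile gene in GWTT, GS4T and GA3T, with filled points for genes that passed the test. Myh11 and Lmod1 in GWTT, at -1.70 and -1.77, were the points that passed.

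The balance of actin to myosin and leiomodin could be read within each library, free of the scaling between libraries. These ratios were chosen after the values were seen and are given without a test. The proximal GWTT libraries held 1.01 and 1.39 Acta2 reads per Myh11 read and the distal ones 0.869 and 0.854. In proximal GS4T the ratio was 3.29 and 3.62, and in distal GS4T 4.16 and 3.73. In proximal GA3T it was 2.35 and 2.92 and in distal GA3T 1.57 and 2.23, so every knockout library lay above every GWTT library. Actg2 reads per Lmod1 read were 1.93 and 2.09 in proximal and 1.45 and 1.47 in distal GWTT, but 14.1 and 10.6 in proximal and 17.7 and 12.5 in distal GS4T. In proximal GA3T they were 4.07 and 4.76 and in distal GA3T 1.87 and 4.04. The ratio of the actins also differed, with 0.0877 to 0.115 Actg2 reads per Acta2 read in the 4 GWTT libraries, 0.162 to 0.220 in the 4 GS4T libraries and 0.0900 to 0.0984 in the 4 GA3T libraries.

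**Figure D4:**
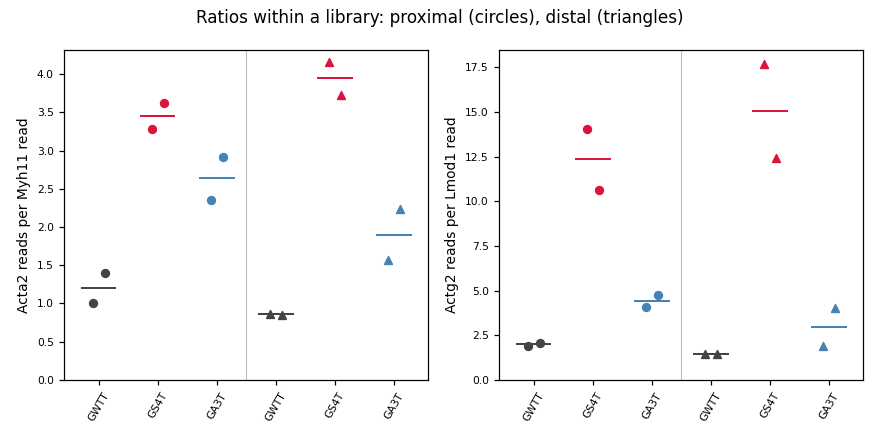
Acta2 reads per Myh11 read (left) and Actg2 reads per Lmod1 read (right) in each of the 12 libraries, with circles for the proximal and triangles for the distal colon and a bar at the mean of each group. The GS4T libraries lie between 3.29 and 4.16 in the left panel, above GWTT at 0.854 to 1.39.

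Across the 12 libraries the 10 genes did not vary as 1 block. On log2(CPM + 0.1), Pearson's r was 0.94 between Myh11 and Lmod1, 0.92 between Mylk and Smtn, 0.91 between Acta2 and Actg2, and 0.78 between Des and Tagln. Synm ran against the actins, with r of -0.84 to Actg2 and -0.74 to Acta2, and Lmod1 against Tagln with r of -0.48. These values describe 12 libraries that share genotype, segment and depth and are not 12 independent samples of a group. The mean of the 10 standardized genes correlated with Mylk (r = 0.87) and Acta2 (0.83), but weakly with Tagln (0.35) and Des (0.24) and negatively with Synm (-0.36). Each of these genes is itself part of that mean, which raises its r, unlike the genes in no list. Of the genes in no list, Enah, an actin filament elongation factor, followed that mean most closely (r = 0.94, 12 libraries). Tbxas1 (r = 0.92), Rassf3 (0.91), Dapk3 (0.91), a kinase that phosphorylates myosin light chains, and Tspan2 (0.91) came next. Enah was at 58.3 to 64.9 CPM in proximal GWTT and at 81.3 to 111 CPM in the other 10 libraries.

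The other 22 contractile and actin-binding genes also moved both ways in GS4T. Counts called by limma in this and the following lists stand against 9.61% of all genes in proximal and 14% in distal GS4T. In GA3T, counts at an unadjusted p with the fold stand against 9.46% (proximal) and 7.77% (distal) of all genes. Those called by DESeq2 in GA3T stand against 6.31% and 5.03%. In proximal GS4T, 6 of 22 rose and 1 fell, with a median log2 fold change of 0.79. The actin crosslinker Actn1 had 1564 and 1593 normalized counts in GWTT and 6678 and 5853 in GS4T (log2 fold change 1.98 ± 0.11, limma adjusted p = 0.0037). Csrp1 (1.71 ± 0.16), Cnn2, a second calponin (1.50 ± 0.10), and the tropomyosin Tpm1 (1.50 ± 0.13) followed, and the gene that fell was Ppp1r12b, a subunit of myosin phosphatase, at -1.06 ± 0.11. In distal GS4T, 2 rose, Csrp1 (1.65 ± 0.19) and Actn1 (1.53 ± 0.14), and 2 fell, Pgm5 (-1.96 ± 0.21) and Pdlim3 (-1.04 ± 0.28), with a median of 0.31 on the log2 scale. There edgeR and DESeq2 each called 2 higher and only 1 lower. None of the 22 was called in GA3T by limma or edgeR, where 9 (proximal) and 0 (distal) passed at an unadjusted p with the fold, DESeq2 called 9 and 0 higher, and the medians were 0.77 and 0.22 on the log2 scale. The filamin gene Flna had 20460 and 19468 normalized counts in proximal GWTT and 28777 and 39474 in proximal GA3T (limma adjusted p = 0.17).

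Each of the 10 regulators of this program had a row. None was called in proximal GS4T by limma or edgeR, with 1 at an unadjusted p with the fold and 1 by DESeq2, and 2 fell in distal GS4T. Mef2c had 460 and 709 normalized counts in distal GWTT and 179 and 177 in GS4T (log2 fold change -1.67 ± 0.24, limma adjusted p = 0.0077), and Klf4, a factor that opposes contractile differentiation, had 7232 and 9454 against 2665 and 3867 (-1.36 ± 0.22, 0.011). In proximal GS4T, Klf4 had 11187 and 7451 against 3610 and 5217 normalized counts (limma adjusted p = 0.055). The serum response factor gene Srf was at 65.9 to 108 CPM and the myocardin gene Myocd at 8.45 to 17.5 CPM over the 12 libraries. In GA3T none of the 10 was called by limma or edgeR, with 0 (proximal) and 1 (distal) at an unadjusted p with the fold and the same numbers by DESeq2.

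Genes of calcium entry, receptors and relaxation (18 of 20 tested in proximal and 17 in distal GS4T) moved both ways, with 2 higher and 1 lower in the proximal and 2 higher and 2 lower in the distal colon. The L-type calcium channel gene Cacna1c had 222 and 165 normalized counts in proximal GWTT and 580 and 471 in GS4T (log2 fold change 1.44 ± 0.22), and 259 and 247 against 1062 and 1192 in the distal colon (2.15 ± 0.14). Kcnmb1, the smooth muscle subunit of the BK potassium channel, rose in GS4T by 2.07 ± 0.26 proximally and by 1.24 ± 0.21 distally on the log2 scale. The muscarinic receptor gene Chrm3 fell from 99.3 and 153 to 12.9 and 6.98 normalized counts in proximal GS4T (-3.56 ± 0.50). Casq2, a calcium store protein, fell from 838 and 632 to 158 and 65.8 normalized counts in distal GS4T (-2.82 ± 0.42), and Gucy1a1, a subunit of the nitric oxide receptor, fell by 1.08 ± 0.10 on the log2 scale. All 7 of these calls had limma adjusted p between 0.0011 and 0.018. None of the list was called in GA3T by limma or edgeR, where 4 (proximal) and 1 (distal) passed at an unadjusted p with the fold, and DESeq2 called 3 (proximal) and 1 (distal).

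Of the 9 genes tested that TGF-β raises in activated myofibroblasts, 2 rose in proximal GS4T and 2 rose and 1 fell in distal GS4T. The collagen crosslinking enzyme Lox rose in both, from 2794 and 2191 to 9484 and 10346 normalized counts in the proximal and from 2444 and 1954 to 12457 and 16625 in the distal colon, whereas Postn fell by 1.08 ± 0.21 on the log2 scale in the distal colon. Of the 5 BMP target genes, 1 fell in the proximal and 3 in the distal GS4T colon. Id2 was among them in both, with 1993 and 1487 against 611 and 547 normalized counts in the proximal and 1348 and 1507 against 816 and 572 in the distal colon. Neither list had a call in GA3T by limma or edgeR. At an unadjusted p with the fold, 2 genes of each list passed in proximal GA3T, and 0 and 1 in distal GA3T. DESeq2 called 3 TGF-β and 2 BMP genes in proximal GA3T, and 1 of each in distal GA3T.

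Markers of other cells moved with the genotype, and bulk profiles cannot tell a change in the number of contractile cells from a change in RNA per cell. The pericyte and vascular mural markers, whose cells also carry Acta2 and Myh11, summed to 476 and 492 CPM in proximal GWTT. They summed to 773 and 784 CPM in proximal GS4T and to 614 and 783 CPM in proximal GA3T. In proximal GS4T, edgeR called 2 of the 9 tested higher and DESeq2 called 3 higher. None of the 9 tested was called in proximal GA3T by limma or edgeR, where 2 passed at an unadjusted p with the fold and DESeq2 called 2 higher. In the distal colon they summed to 605 and 584 CPM in GWTT, 1449 and 1224 CPM in GS4T and 604 and 700 CPM in GA3T. In distal GS4T, 5 of the 9 tested rose, among them Kcnj8, Notch3, Mcam and Abcc9, while Myh11, Lmod1 and Synm fell there. Subepithelial telocyte genes summed to 331 and 382 CPM in proximal GWTT and to 758 to 1578 CPM in the 4 proximal knockout libraries, with 5 of 6 called higher in GS4T by limma, edgeR and DESeq2. In proximal GA3T limma called 4 of the 6 higher (0.358% of all genes), edgeR 0 (0%) and DESeq2 5 (6.31%). Bmp7 was the largest, with 548 and 466 against 3920 and 2488 normalized counts in proximal GS4T and 577 and 490 against 4626 and 6352 in proximal GA3T. Fibroblast markers fell in part, 5 of 12 in proximal and 6 of 12 in distal GS4T, where 1 (Grem1) rose, with Gsn and Cd34 the largest falls in both segments. In GA3T, DESeq2 called 2 fibroblast markers lower in the proximal and 1 lower in the distal colon, and edgeR called 0.

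Epithelial markers summed to 25.1 and 705 CPM in proximal GWTT, 1599 and 2323 CPM in proximal GS4T, where 1 of 8 was called, and 685 and 1075 CPM in proximal GA3T. In the distal colon they summed to 95.3 and 252 CPM in GWTT, 903 and 2021 CPM in GS4T, where 8 of 8 were called, and 1271 and 557 CPM in GA3T. In GA3T, DESeq2 called 0 of 8 epithelial markers in the proximal colon and 6 of 8 higher in the distal colon (5.03% of all genes). There edgeR called 0 in both segments. Immune markers summed to 181 and 257 CPM in proximal GWTT, to 718 to 1108 CPM in proximal GS4T and to 540 to 1022 CPM in proximal GA3T, with 5 of 8 called higher in proximal GS4T. In distal GS4T, 4 rose and 1 fell. Endothelial markers summed to 28.5 and 32.0 CPM in proximal GWTT and 72.3 and 116 CPM in proximal GS4T, with 3 of 6 called higher. Neither DESeq2 nor edgeR called an endothelial marker in GA3T. Cell cycle genes were called higher in 4 of 5 cases in the proximal and 3 of 5 in the distal GS4T colon. In GA3T, DESeq2 called 4 of the 5 cell cycle genes higher in each segment (6.31% of all genes proximally, 5.03% distally), and edgeR called 0. The part of these cells in the contractile gene changes was not tested.

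Markers of pacemaker cells, striated muscle, enteric glia and neurons, and mesothelium were at low summed levels. Interstitial cells of Cajal, the pacemaker cells of the muscle layer, had 4 markers with 50.0 to 91.3 CPM in sum and none called in any knockout by limma, edgeR, DESeq2 or an unadjusted p with the fold. Striated muscle markers summed to 8.82 to 18.7 CPM, with 4 of 7 (Myh1, Myh6, Ckm and Tnnc2) without a row in all tables and the skeletal actin Acta1 at 0.18 to 9.84 CPM. Of the 3 striated genes tested, DESeq2 called 1 higher in distal GS4T (15.8% of all genes were called). Enteric glia and neuron markers summed to 2.53 to 9.58 CPM, with none called by limma, edgeR or DESeq2 and 1 each in distal GS4T and proximal GA3T at an unadjusted p with the fold. Mesothelial markers summed to 4.81 to 17.4 CPM, with 1 of 3 called lower in proximal and 1 called higher in distal GS4T. In proximal GS4T, edgeR and DESeq2 each called 1 higher as well as 1 lower.

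**Figure D5:**
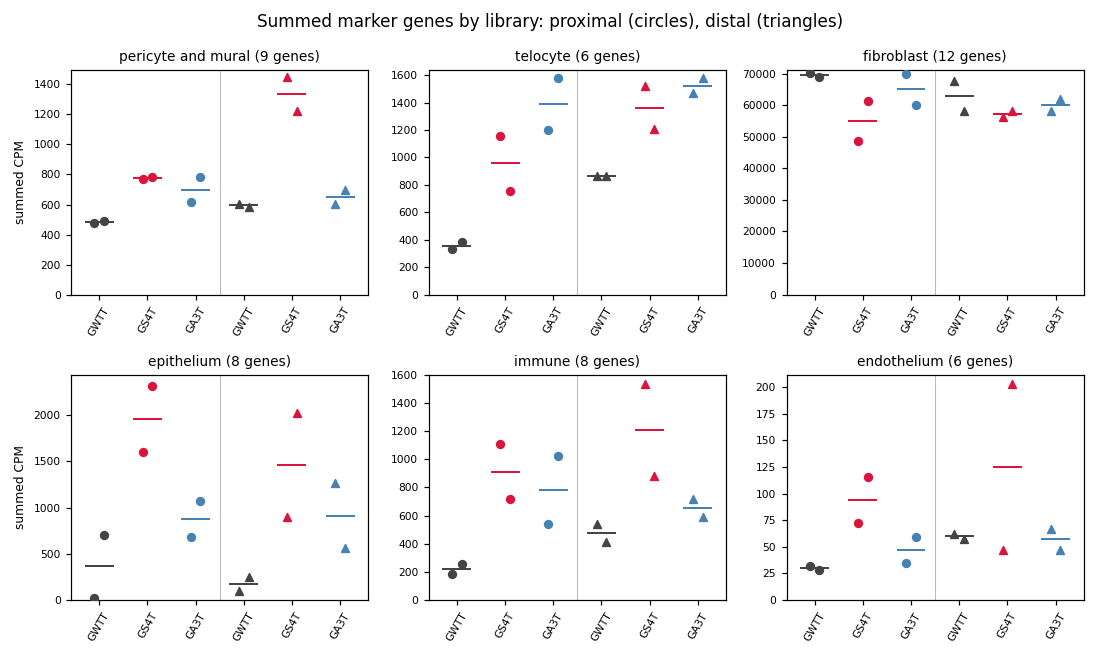
Summed CPM of 6 marker lists in each of the 12 libraries, with circles for the proximal and triangles for the distal colon and a bar at the mean of each group. Pericyte and mural markers in distal GS4T, at 1224 and 1449, lie above the other groups, and epithelial markers lie above GWTT in GS4T of both segments.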

How the data were processed

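RNA of sorted Gli1-tdTomato+ cells was sequenced with a SMARTER mRNA kit. Reads were mapped uniquely to mm10 with STAR 2.5.3, and the authors deposited a signal per gene and library, read counts divided by DESeq2 1.28.1 size factors, in 4 tables (a knockout with GWTT, per segment). The counting program, annotation and strand were not given in the sources used here. Whole reads were recovered from 100% of values (tolerance 0.1). In 2 of the columns the value of 1 read was itself about 1.

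Each knockout was compared with GWTT within its table by limma 3.58.1 (R 4.3.3, trend) on log2(normalized count + 1), for genes with a mean of at least 10. Segments and knockouts were compared over 12 libraries on log2(CPM + 0.1), for genes with a mean CPM of at least 0.5. Called means a Benjamini-Hochberg adjusted p under 0.05 and a log2 difference of at least 1 in size. Fold changes of low genes are understated by the added constant. edgeR 4.0.16 and DESeq2 1.42.0 were run on the recovered reads as alternatives. The fits were tested on simulated data. Exon lengths and overlaps came from GENCODE M21, and positions are of GRCm38.

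The 10 genes, the lists and the tests were chosen with earlier results of these data known. Named beside the 10 were, per list, up to 4 called genes with the largest change, otherwise the 2 most abundant. The 5 unlisted genes most correlated with the mean of the 10 were also named. Acta1, Actc1, Srf, Myocd, Epcam, Col1a1 and Pdgfra were added as markers. The other 8 tables were not used here.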

Additional observations from a re-analysis of the deposited data

Results flagged for a closer look

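A direct test of GS4T against GA3T over the 12 libraries called 2 of the 10 contractile genes in the distal colon. It called 2.12% of all 15353 genes. With sex as a term, or in a fit of only the distal knockout libraries, neither of the 2 passed. Actg2 was higher in GS4T by 1.48 ± 0.30 on the log2 scale (limma adjusted p = 0.040), with 226 and 126 CPM against 57.2 and 63.4 CPM, so it was higher in 2 of 2 GS4T libraries. Des was higher by 1.74 ± 0.38 (limma adjusted p = 0.047), with 69.8 and 35.4 CPM against 21.2 and 10.4 CPM, again in 2 of 2 libraries. Against GWTT, Des was higher in both GS4T libraries and lower in both GA3T libraries of each segment. Groups of 2 libraries are too small to look for single outlying values.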

How the results depend on the processing

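Of the single-gene results of the 10 contractile genes over all alternatives, 1402 kept their direction and side of the threshold, 40 passed it only under the alternative, 27 no longer passed it and 47 turned direction. The 3 calls in proximal GS4T and the 4 in distal GS4T held under each change of pseudocount, filter, scaling or tool that was run. In proximal GA3T, where limma called 0 of the 10 genes and 55 of all genes, the unadjusted p gave 4 and 1451, DESeq2 4 and 969, all 12 libraries 3 and 713, and the addition of sex, chosen after seeing the data, 3 and 842. There edgeR called 0 genes in all, a pseudocount of 0.1 gave 6, of 10 gave 87, and upper-quartile rescaling 8. In distal GA3T (0 genes) the unadjusted p gave 1197, DESeq2 776, all 12 libraries 72, with sex 285, a pseudocount of 10 gave 11 and upper-quartile rescaling 2. In proximal GS4T the unadjusted p gave 2446 genes against 1472. Between segments of GWTT the unadjusted p called 5 of the 10 (6.4% of all genes) and a fit of only those libraries 4 (2.19%), against 2 (1.32%). Between knockouts in the distal colon only those libraries, or sex as a term, gave 0 against 2, and in the proximal colon the unadjusted p gave 2 against 0. It gave 4 against 0 for each difference of effects. The cause of these shifts was not tested.

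Same-numbered libraries were not paired by the labels (correlations of deviations from -0.29 to 0.39 over 15 pairs of groups). Between the segments of 1 genotype they were 0.21 in GWTT, 0.28 in GS4T and 0.39 in GA3T, the highest of the 15. With the block, Myh11 and Lmod1 still passed between the GWTT segments (limma adjusted p = 0.018 and 0.040). Against GWTT, a replicate block gave 1 of the 10 genes and 253 genes in proximal GA3T and 62 genes in distal GA3T. It added Des in distal GS4T.

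With 1 library left out (a lone library was taken to vary like the others), the calls among the 10 genes ranged from 0 to 3 in proximal GS4T, 2 to 5 in distal GS4T, 0 to 1 in each GA3T segment, 0 to 0 between GWTT segments, and 0 to 2 between distal knockouts. All genes called ranged from 119 to 2154, 1194 to 1915, 0 to 234 and 0 to 749 in proximal and distal GS4T and proximal and distal GA3T.

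The changes of direction were of small values. Mylk in distal GS4T was 0.017 with DESeq2 and 0.0099 with edgeR. With sex as a term Tagln was -0.088 and Synm -0.046 between GWTT segments, and the Tagln difference of GS4T effects was 0.073. With a library left out the log2 values ranged as follows. Against GWTT, Lmod1 ran from -0.23 to 0.54 in proximal GS4T, Mylk from -0.31 to 0.30 and Smtn from -0.17 to 0.13 in distal GS4T. Cnn1 ran from -0.24 to 1.05 in proximal GA3T, and in distal GA3T Tagln from -0.59 to 0.35, Cnn1 from -0.45 to 0.065 and Smtn from -0.028 to 0.28. Between segments of GS4T, Acta2 ran from -0.61 to 0.16, Myh11 from -0.34 to 0.28, Tagln from -0.21 to 0.18, Des from -0.35 to 0.62, Cnn1 from -0.49 to 0.14 and Smtn from -0.072 to 0.23. Between segments of GA3T, Synm ran from -0.20 to 0.60, Acta2 from -0.49 to 0.18 and Actg2 from -0.53 to 0.12. Between proximal knockouts, Acta2 ran from -0.11 to 0.57, Cnn1 from -0.18 to 0.73, Synm from -0.73 to 0.064, Myh11 from -0.48 to 0.14 and Mylk from -0.48 to 0.091. Between distal knockouts, Cnn1 ran from -0.55 to 0.080, Acta2 from -0.081 to 0.68 and Mylk from -0.50 to 0.14. The difference of effects ran from -0.72 to 0.26 for Des in GS4T, and in GA3T from -0.24 to 0.79 for Des, -0.36 to 0.43 for Synm and -0.049 to 1.21 for Cnn1.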

Other observations

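The cytoplasmic actins, which belong to none of the lists and were looked at after their values were seen, were also measured. Actb was at 582 and 685 CPM in proximal GWTT, 1607 and 1555 CPM in proximal GS4T and 882 and 1370 CPM in proximal GA3T. Distally, Actb was at 739 and 640 CPM in GWTT, 1723 and 1604 CPM in GS4T and 933 and 1032 CPM in GA3T. Actg1 was at 542 and 653 CPM in proximal GWTT and 974 and 1028 CPM in proximal GS4T, and at 548 and 574 against 1118 and 1067 CPM in the distal colon. Both genes were higher in every GS4T library than in every GWTT library of its segment. Such separation was common, found for 65.4% of all genes in proximal GS4T and for 67.5% in distal GS4T. Actb was also higher in every GA3T library than in every GWTT library of its segment. Actg1 in GA3T is not given here. The Actb and Actg1 values were given without a test, and whether either rise was particular to GS4T was not tested.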
